A study of Mus musculus with 24 samples.

Results

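The 8 serotonin receptor genes Htr1a, Htr1b, Htr2a, Htr2c, Htr3a, Htr4, Htr5a and Htr7 were followed in hippocampal RNA of adult mice in which the transcription factor gene Egr1 had been deleted by Cre recombinase. The genes were chosen by symbol, each was matched through GENCODE M21 to its Ensembl identifier, and all 8 were found among the 36605 genes of the deposited count table. The RNA came from 24 mice, 3 females and 3 males of each of 4 genotypes. Egr1cKO mice, FF (+) in the labels, carried Egr1 alleles flanked by loxP sites (floxP) together with a Nestin-Cre transgene. The floxP controls, FF (-), carried the floxed alleles without Cre, the Nestin-Cre controls, wt (+), carried the transgene beside intact Egr1, and the complete wild type, wt (-), carried neither. Per the study's methods the floxed line was of C57BL/6N origin, and the Nestin-Cre line is listed there as B6.Cg-Tg (Nes-Cre)1Kln/J. The transgene places Cre under a Nestin promoter, which is active in neural precursors. The deletion thus reaches cells of that lineage throughout the brain and is not particular to the hippocampus. An exact age, a treatment or a batch is not given in the sources used here. Mouse numbers in the labels fall in 2 ranges, 1 for the floxed and 1 for the unfloxed mice, so the floxed allele and the series a mouse came from cannot be told apart.

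Serotonin reaches the hippocampus along axons of the raphe nuclei, whose cell bodies lie in the brainstem, so this tissue holds the receptors but little of the machinery that makes the transmitter. Htr1a, Htr1b and Htr5a encode receptors coupled to inhibitory G proteins, which lower cyclic AMP, and the Htr1a product also opens potassium channels of pyramidal cells. Htr2a and Htr2c encode receptors coupled to Gq and phospholipase C, Htr4 and Htr7 encode receptors coupled to Gs that raise cyclic AMP, and Htr3a encodes a subunit of a serotonin-gated cation channel found mainly on interneurons. EGR proteins are zinc finger transcription factors that neurons make within minutes of strong activity. They bind GC-rich DNA, and members of this family have been reported to regulate Htr2a.

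Stretches of promoter that hold part of the EGR binding motif are shown first, because the deleted gene encodes a factor that binds the motif. RefSeq promoter windows of 300 bases on GRCm38.p6, each starting 250 bases before the annotated start of a gene, were found for 6 of the 8 receptors, namely Htr1a, Htr1b, Htr2a, Htr2c, Htr5a and Htr7. The EGR words GCGTGGGCG and GCGGGGGCG and their shorter ends GTGGGCG and GGGGGCG, each of which also lies inside one of the longer words, were searched on both strands. Of all 32851 windows, 0.612% held GCGTGGGCG, 2.91% held GCGGGGGCG, 7.97% held GTGGGCG and 16.4% held GGGGGCG. The Htr2a window held GGGGGCG on its own strand, 109 bases before the RefSeq start and 75 bases before the GENCODE start, and the Htr5a window held GTGGGCG on its own strand, 65 bases before the RefSeq start. Neither the Htr2a nor the Htr5a window held a longer word. The windows of Htr1a, Htr1b and Htr2c held none of the 4 words. Capitals mark the matched letters in the following runs, which are written 5′ to 3′ on the strand of the gene and end before the earlier of the RefSeq and GENCODE starts. Binding was not measured in these mice, and a match says only that these letters are present.
Htr2a, chr14:74640624-74640839, plus strand: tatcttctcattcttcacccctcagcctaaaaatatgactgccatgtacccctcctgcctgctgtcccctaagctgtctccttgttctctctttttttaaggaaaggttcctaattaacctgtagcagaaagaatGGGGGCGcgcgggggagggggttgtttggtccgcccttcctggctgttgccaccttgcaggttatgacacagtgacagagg
Htr5a, chr5:27841697-27841946, plus strand: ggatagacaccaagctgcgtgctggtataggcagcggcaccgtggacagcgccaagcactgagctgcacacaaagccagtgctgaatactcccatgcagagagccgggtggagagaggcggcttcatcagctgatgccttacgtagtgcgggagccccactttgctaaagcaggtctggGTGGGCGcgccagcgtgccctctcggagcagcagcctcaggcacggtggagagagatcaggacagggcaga

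The libraries held between 18025168 and 34955004 counted reads, with a median of 22743950.5, and each receptor was covered by at least 101 reads in every mouse. The deleted gene separated the genotypes as labelled, since Egr1 lay between 4.86 and 10.2 CPM (counts scaled to the library size) in the 6 Egr1cKO mice and between 47.7 and 149 CPM in the other 18. The labels name the cell type as endocrine, yet the 7 pituitary hormone and factor genes that were measured of 8 listed summed to between 1.00 and 3.84 CPM, with Gh at a mean of 0.0482 CPM and Prl at 0.0638 CPM, while the 6 CA1 pyramidal cell markers summed to at least 532 CPM in every mouse. Some libraries stood apart in tissue make-up. The 6 dentate granule cell markers Prox1, C1ql2, Lct, Tdo2, Dsp and Stxbp6 summed to 261 CPM in Egr1cKO male 3, 284 CPM in Nestin-Cre control female 1 and 368 CPM in Nestin-Cre control male 3, against 425 to 665 CPM in the other 21 mice, and the choroid plexus gene Ttr lay above 100 CPM in 5 mice, reaching 1907 CPM in Nestin-Cre control female 1. Values without these mice are given where they changed most.

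The first question was how the receptors rank beside one another, for which levels were computed as TPM, that is scaled by exon length as well as library, since counts of genes of unequal length cannot be compared. Htr1a, the main inhibitory serotonin receptor of pyramidal cells, stood first with 34.3 ± 5.81 TPM (SD, n = 24) and took 30.8% of the summed TPM of the 8 genes. It exceeded 73.62% of the protein-coding genes of the table. Htr3a followed at 16.3 ± 2.7 TPM, Htr2c at 14.2 ± 4.94, Htr4 at 12.0 ± 3.26 and Htr2a at 11.4 ± 2.54 TPM, all measured over the 24 mice. Htr7 at 9.42 ± 2.35 TPM, Htr5a at 8.40 ± 1.60 TPM and Htr1b at 5.75 ± 1.09 TPM closed the order.

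Neighbours at either end of that order were separated in every mouse and those in the middle were not. Htr1a lay above Htr3a in 24 of 24 mice, by 1.07 ± 0.34 on the log2 scale (SD over mice), and Htr5a lay above Htr1b in 24 of 24, by 0.55 ± 0.30. Between these, neighbours kept their order in 14 to 18 of the 24 mice, with mean log2 ratios of 0.06 to 0.28. The SD of these ratios over mice, 0.33 to 0.74, was larger in each case. Neighbours among the 6 genes from Htr3a to Htr5a thus did not hold the same order in every mouse, and whether their mean ratios differ from 0 was not tested. Genes farther apart overlapped less, with Htr3a between 11.2 and 20.9 TPM and Htr5a between 5.86 and 11.6 TPM. Single mice also departed from the ends. Htr2c exceeded Htr1a in Egr1cKO male 3 (27.1 against 26.9 TPM) and in Nestin-Cre control female 1 (22.8 against 21.8 TPM), and Htr1b at 6.94 TPM lay above Htr2c and Htr7 in wild-type male 1 and at 7.003 TPM above Htr4 in Nestin-Cre control male 3. The place of Htr2c also hung on the transcript taken for its length. Its exons sum to 9328 bases over 7 transcripts while the longest transcript has 4883, and with the longest transcript Htr2c passed Htr3a, the mean log2 ratio of Htr3a to Htr2c turning from 0.26 to -0.67. Exon sharing also limits Htr1b, because 852 bases of its exons overlap those of the antisense gene D430036J16Rik and the libraries did not keep the strand. The plot of TPM by receptor shows this order for every mouse.

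**Figure D1:**
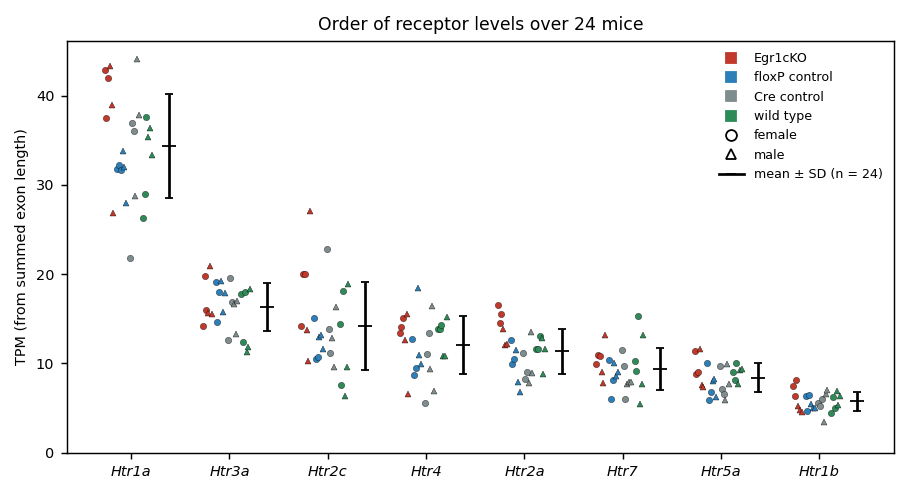
TPM of the 8 serotonin receptors (y axis, linear from 0) in each of 24 mice, with receptors in order of their mean along the x axis, colours for genotype, circles for females and triangles for males, and the black bar for the mean ± SD over 24 mice. Htr1a averages 34.3 TPM and Htr1b 5.75 TPM, and neighbours among the 6 receptors between them overlap broadly.

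Among the 8 genes, Htr2c and Htr4 were the most variable from mouse to mouse. The SD of log2(CPM + 1) over the 24 mice was 0.47 for Htr2c and 0.38 for Htr4, larger than in 98.35% and 95.4% of the genes kept, while the other 6 ran from 0.22 to 0.30 around a median of 0.21 over all genes kept. The highest mouse held 4.21 times the Htr2c level of the lowest mouse and 3.22 times the Htr4 level, against 1.76 times for Htr3a.

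Of the Gq-coupled receptors, Htr2a had the lowest p of the 8 in each comparison of Egr1cKO mice. Htr2a (ENSMUSG00000034997, GRCm38 chr14:74640840-74709494, plus strand) is the cortical and hippocampal target of the classical hallucinogens. Its level was 25.3, 21.2 and 22.3 CPM in the Egr1cKO females and 20.9, 17.3 and 18.3 CPM in the Egr1cKO males. Across the lowest, median and highest mouse it was 11.04, 16.4 and 18.1 CPM in floxP controls, 12.3, 14.1 and 19.6 CPM in Nestin-Cre controls and 13.5, 17.8 and 19.8 CPM in wild type. Thus 4 of 6 Egr1cKO mice lay above all 18 others, 5 of 6 lay above all floxP controls, and the groups overlapped through Egr1cKO males 2 and 3. Group means were 20.9 ± 2.87 CPM in Egr1cKO mice and 15.8 ± 2.72 CPM in the 18 others (SD).

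Taken against all 18 other mice, the difference of Htr2a was a log2FC of 0.41 ± 0.10 (SE), with an unadjusted p of 0.000563 and an adjusted p of 0.179 in edgeR's quasi-likelihood test over 18433 genes. Its rank among those genes by p was 57, and it stayed outside the DEGs, which had to reach an FC of 1.2 or more with an adjusted p no higher than 0.05 and held Egr1 alone. DESeq2, which called 34 genes here, gave Htr2a an adjusted p of 0.0628. Against floxP controls the log2FC of Htr2a was 0.46 ± 0.10. Its adjusted p was 0.242 in edgeR and 0.0136 in DESeq2, which called 86 genes there, so that the call depended on the tool. Against Nestin-Cre controls the log2FC of Htr2a was 0.48 ± 0.12 with adjusted p values of 0.354 in edgeR and 0.0787 in DESeq2. The comparisons share the same 6 Egr1cKO mice and are not independent of each other. Single mice also decided the call in edgeR. The adjusted p of Htr2a was 0.0461 against all others without Egr1cKO male 3, 0.0313 against floxP controls without floxP control male 1 and 0.0101 against Nestin-Cre controls without Nestin-Cre control male 2, with log2FC of 0.44, 0.55 and 0.60. The calls over all genes went up in those same fits, from 1 to 215, from 4 to 304 and from 1 to 794. Neither allele alone moved Htr2a past the threshold, with a log2FC of -0.22 ± 0.12 for Nestin-Cre alone and -0.21 ± 0.11 for floxP alone against wild type, both on the negative side.

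Htr2a did not follow the dentate markers (r = -0.11 over 24 mice), and its log2FC against all other mice was 0.43 without the 3 mice poor in them and 0.39 without the 5 mice rich in Ttr. The marker list of the medial habenula did move with it. The 7 medial habenula genes on the list, of which 7 were measured, summed to 41.5, 46.1 and 61.9 CPM across the lowest, median and highest Egr1cKO mouse against 32.9, 40.1 and 47.2 CPM in the other 18, and this sum correlated with Htr2a at r = 0.561 (Spearman's rho = 0.654, adjusted permutation p = 0.0385 and 0.0102). Nwd2 made up most of that sum, at a mean of 35.7 CPM, while the habenular Chrnb4 and Pou4f1 never exceeded 0.827 and 0.387 CPM. The relation is therefore largely one with Nwd2 and does not show habenular tissue in the samples. The 8 markers of subiculum and deep cortex had a median sum of 360.5 CPM in Egr1cKO mice and 299 CPM in the others. Their relation with Htr2a did not pass adjustment (r = 0.506, rho = 0.468, adjusted permutation p = 0.067 and 0.121). The part of these tissues in the Htr2a difference was not tested.

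Htr2c (ENSMUSG00000041380, chrX:146962513-147197277, plus strand) encodes the other Gq-coupled receptor, whose message is edited at several adenosines and which the choroid plexus also makes in quantity. It measured 36.1, 48.6 and 47.7 CPM in Egr1cKO females and 34.5, 24.6 and 68.2 CPM in Egr1cKO males. The lowest, median and highest values were 28.1, 31.3 and 36.0 CPM in floxP controls, 23.1, 34.7 and 56.7 CPM in Nestin-Cre controls and 16.2, 31.1 and 44.9 CPM in wild type. All groups overlapped, and the highest mouse of all was the Egr1cKO male with the fewest dentate markers. The log2FC was 0.40 ± 0.18 against all other mice (unadjusted p = 0.0409, adjusted p = 0.311) and 0.46 ± 0.18 against floxP controls (unadjusted p = 0.0194, adjusted p = 0.258). Against Nestin-Cre controls it was 0.24 ± 0.23 (unadjusted p = 0.304). Leaving out Egr1cKO male 3 alone gave 0.22 against all others, 0.24 against floxP controls and 0.00012 against Nestin-Cre controls. Without the 3 dentate-poor mice the first 2 values became 0.30 and 0.24, and with the dentate marker sum as a term in the fit 0.27 and 0.26, whereas without the 5 mice rich in Ttr the value against all others was 0.62 (adjusted p = 0.137). Fewer granule cells and less marker RNA per granule cell cannot be told apart in RNA of whole tissue.

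Among the receptors that act through inhibitory G proteins, Htr1a (ENSMUSG00000021721, chr13:105443639-105448122, plus strand) averaged 45.6 ± 7.38 CPM in Egr1cKO mice, 38.8 ± 2.09 in floxP controls, 41.8 ± 9.17 in Nestin-Cre controls and 39.6 ± 5.10 CPM in wild type (SD, n = 6 each). Of the 6 Egr1cKO mice, 5 lay above every floxP control and the dentate-poor male 3, at 32.4 CPM, lay below every one. The log2FC of Htr1a was 0.23 ± 0.10 against floxP controls (unadjusted p = 0.0294, adjusted p = 0.274) and 0.19 ± 0.10 against all other mice (unadjusted p = 0.0592, adjusted p = 0.346). Without the 3 dentate-poor mice they were 0.31 and 0.25, with adjusted p values of 0.0593 and 0.0805, so that the estimates of Htr1a were larger and those of Htr2c smaller without these mice.

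Htr1b (ENSMUSG00000049511, chr9:81628291-81633828, minus strand), the terminal autoreceptor and heteroreceptor that curbs transmitter release, averaged 7.60 ± 1.82 CPM in Egr1cKO mice and 7.21 ± 1.15 CPM in the 18 others (SD), a log2FC of 0.08 ± 0.12. Htr5a (ENSMUSG00000039106, chr5:27842149-27855088, plus strand) averaged 13.2 ± 2.87 CPM in Egr1cKO mice, 11.1 ± 1.71 in floxP controls, 11.4 ± 2.07 in Nestin-Cre controls and 12.8 ± 1.16 CPM in wild type. Its values fell into a pair of Egr1cKO mice at 16.7 and 16.8 CPM, above all others, and 4 at 10.4 to 12.4 CPM, within the range of the controls. The log2FC of Htr5a against all other mice was 0.17 ± 0.11.

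Both Gs-coupled receptors overlapped between all genotypes. Htr4 (ENSMUSG00000026322, chr18:62324204-62496577, plus strand), which raises the excitability of hippocampal pyramidal and granule cells, averaged 16.6 ± 3.97 CPM in Egr1cKO mice and 15.6 ± 3.97 CPM in the others (log2FC 0.09 ± 0.16). The 3 dentate-poor mice held 8.74, 7.30 and 9.44 CPM of Htr4, the 3 lowest values of all 24, and the direction of its difference depended on the mice kept, with a log2FC of 0.14 without those 3 and -0.07 without the 5 mice rich in Ttr. Htr7 (ENSMUSG00000024798, chr19:35958734-36057507, minus strand), a receptor linked to circadian timing and hippocampal rhythm, averaged 9.24 ± 1.72 CPM in Egr1cKO mice and 8.38 ± 2.08 CPM in the others (log2FC 0.15 ± 0.15), and its log2FC was 0.05 without Egr1cKO male 3. The channel subunit Htr3a (ENSMUSG00000032269, chr9:48899213-48911099, minus strand) was nearly level at 9.32 ± 1.29 against 9.13 ± 1.58 CPM, a log2FC of 0.03 ± 0.11, which turned to -0.10 ± 0.11 against floxP controls.

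**Figure D2:**
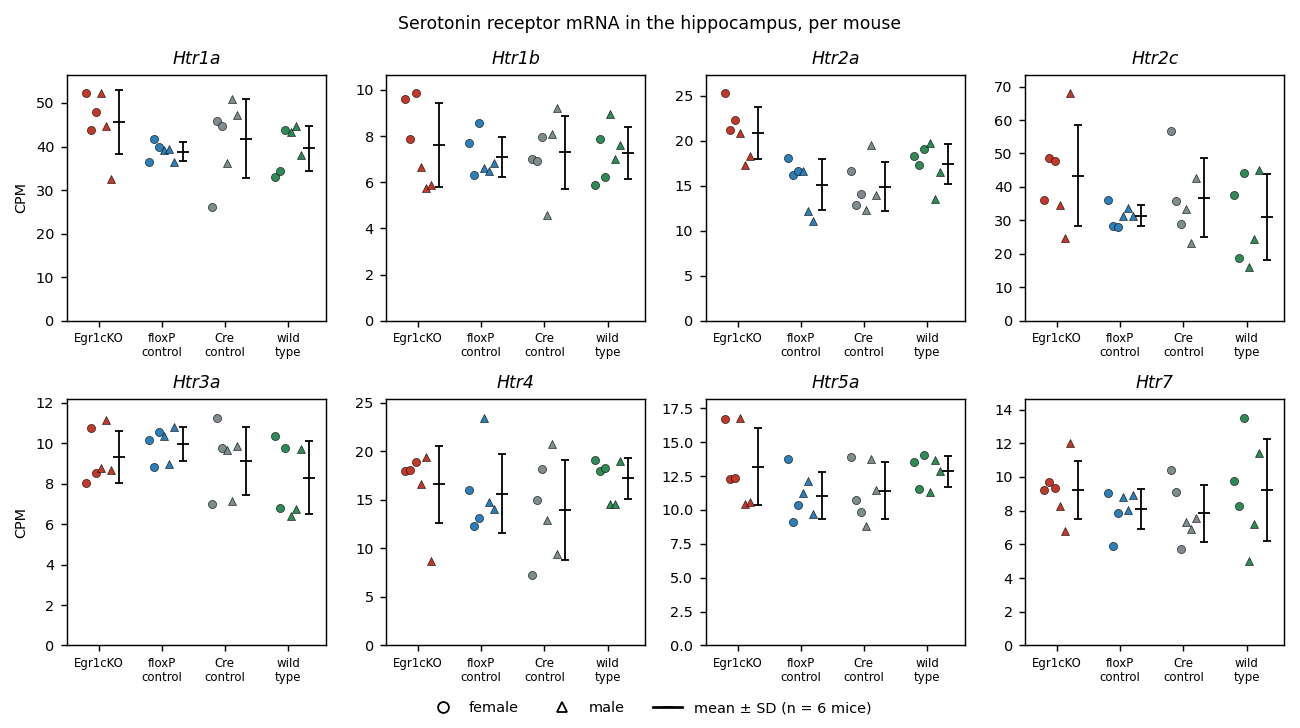
CPM of each receptor (y axis, linear from 0, 1 panel a gene) in every mouse by genotype along the x axis, with circles for females, triangles for males and the black bar for the mean ± SD of 6 mice. Htr2a is the receptor with most Egr1cKO mice, 4 of 6, above all 18 others, and in the remaining panels at most 2 are.

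Counted over the 8 receptors, edgeR called 0 against all other mice, where 0.00543% of all tested genes were called, and 2 (Htr2a and Htr2c) had an unadjusted p under 0.05, against 15.1% of all genes. Against floxP controls 0 were called by edgeR and 1 by DESeq2 (background in edgeR 0.0232%, in DESeq2 86 of 17265 genes). In edgeR 3 had an unadjusted p under 0.05 there (Htr2a, Htr2c and Htr1a) against 16.2% of all genes. Against Nestin-Cre controls 0 were called by either tool (background 0.00585%), with Htr2a alone at an unadjusted p under 0.05 against 12.3%. A log2FC above 0 was found for 8, 7 and 8 of the 8 receptors in the 3 comparisons, beside 48.17%, 48.64% and 46.69% of all tested genes. The median log2FC of the receptors was 0.16, 0.21 and 0.22, with medians of all genes of -0.01 in each. Of the serotonin receptor genes outside these 8 that were tested, 1 of 4, 1 of 3 and 2 of 3 were above 0, with medians of -0.05, -0.03 and 0.04. The 8 receptors and the lists were chosen with earlier results of these data known, and the 3 comparisons share the same Egr1cKO mice. These counts of signs were therefore not tested and are given as a description.

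The control comparisons asked what each allele did without the other. For Nestin-Cre alone against wild type, edgeR and DESeq2 called 0 of the 8 receptors, edgeR called 0% of all genes, and 0 of the 8 had an unadjusted p under 0.05 where 6.05% of all genes did. The estimates ran from -0.30 ± 0.20 for Htr4 to 0.25 ± 0.25 for Htr2c, and without the dentate-poor Nestin-Cre mice those of Htr4 and Htr2c became -0.04 and -0.03. For floxP alone against wild type both tools again called 0 receptors and edgeR called 0% of all genes, and 0 receptors beside 9.68% of all genes had an unadjusted p under 0.05. There the estimates ran from -0.21 ± 0.11 for Htr5a to 0.27 ± 0.13 for Htr3a. The plot of fold changes sets these comparisons beside those of the Egr1cKO mice.

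**Figure D3:**
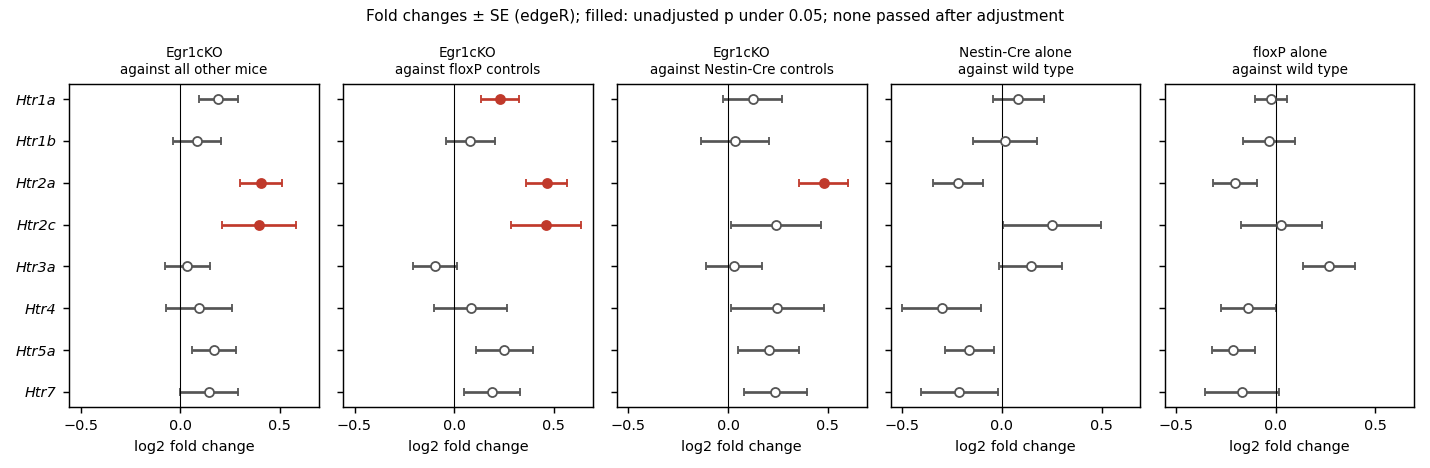
Log2 fold change (x axis) ± SE of each receptor (y axis) in 5 pairwise comparisons, fitted with edgeR, with filled red points where the unadjusted p is under 0.05. Htr2a is filled in all 3 comparisons of Egr1cKO mice and lies at -0.22 and -0.21 in the comparisons of 1 allele alone.

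A factorial fit of all 24 mice with floxP, Nestin-Cre, their interaction and sex asked whether carrying both alleles, and so lacking Egr1, differs from the sum of both. For the interaction edgeR called 0 receptors (background 0.00543%) and DESeq2, which called 41 of 18433 genes, called 1, Htr2a. The interaction of Htr2a was 0.69 ± 0.17 on the log2 scale (unadjusted p = 0.000402, adjusted p = 0.150 in edgeR and 0.0465 in DESeq2). In edgeR it was 0.74 with an adjusted p of 0.0493 without floxP control male 1, and 0.81 with an adjusted p of 0.0189 without Nestin-Cre control male 2, where the calls over all genes went from 1 to 325 and to 1526. Htr2a and Htr5a (0.43 ± 0.19, unadjusted p = 0.0334) were the 2 receptors with an unadjusted p under 0.05, against 19.2% of all genes. Htr7 had an interaction of 0.42 ± 0.26 and Htr3a, alone on the negative side, one of -0.23 ± 0.19. An interaction also takes in how far the controls with a single allele lay from wild type. Mean levels in Egr1cKO mice and wild type were 20.9 and 17.4 CPM for Htr2a, 13.2 and 12.8 CPM for Htr5a and 9.24 and 9.21 CPM for Htr7. Egr1cKO mice were not fitted against wild type alone. For the floxP term edgeR and DESeq2 called 0 receptors (background 0.00543%), and 0 had an unadjusted p under 0.05 against 5.39% of all genes. For the Nestin-Cre term both tools called 0 receptors (background 0.0488%), and Htr2c at 0.36 ± 0.17 had an unadjusted p under 0.05 (0.0422), against 4.23% of all genes. Without the 3 dentate-poor mice that value of Htr2c was 0.11, while the Nestin-Cre term of Htr1a went from 0.16 ± 0.09 to 0.24 ± 0.06 (adjusted p = 0.434).

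Females and males were compared next. Between all females and all males edgeR and DESeq2 called 0 receptors (background 0.0701%), and 0 had an unadjusted p under 0.05 against 5.66% of all genes, with estimates from -0.04 ± 0.09 for Htr1a to 0.18 ± 0.11 for Htr2a. An interaction fitted over the 8 groups of sex and genotype asked whether the sex difference itself was altered in Egr1cKO mice. Again 0 receptors were called by either tool (background 0.00507%) and 1, Htr1b, had an unadjusted p under 0.05, against 6.09% of all genes. Htr1b measured 9.60, 7.85 and 9.88 CPM in Egr1cKO females and 6.67, 5.76 and 5.87 CPM in Egr1cKO males. The 2 sexes did not overlap there. In Nestin-Cre controls they did, with 7.01, 6.91 and 7.94 CPM in females and 4.59, 8.07 and 9.22 CPM in males. Htr1b also overlapped between the sexes in floxP controls (6.31 to 8.55 CPM in females, 6.47 to 6.82 CPM in males). In wild type it ranged from 5.88 to 7.87 CPM in females and from 6.996 to 8.96 CPM in males, again overlapping. Htr2a did not overlap between the sexes in Egr1cKO mice either (21.2 to 25.3 CPM in females, 17.3 to 20.9 CPM in males). The share of all genes separated in this way was not counted. With 3 mice of each sex such a separation can also arise without a sex difference, so it is given as a description only. The change of the log2 difference of Htr1b was 0.60 ± 0.23 (unadjusted p = 0.0142, adjusted p = 0.741), and it was 0.48 without the 5 mice rich in Ttr and 0.49 without the 3 dentate-poor mice, with unadjusted p values of 0.0877 and 0.056. The CA1 markers separated the same mice, at 869, 666 and 690 CPM in Egr1cKO females and 642, 561 and 581 CPM in Egr1cKO males, as did the subiculum markers, at 404, 408 and 373 CPM against 348, 225 and 246 CPM, and their part in the Htr1b difference was not tested.

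The other genes of the serotonin system were read from lists. Of the other receptor genes, Htr5b and Htr6 were as well expressed as the middle of the 8, at 13.0 ± 3.11 and 11.6 ± 2.03 TPM, Htr1f stood at 2.7 ± 0.828 TPM, and Htr2b and Htr1d averaged 0.622 and 0.268 TPM (SD, n = 24). The list also holds Htr3b, which is not among the genes analysed here. Of the 4 tested, edgeR called 0 in Egr1cKO mice against all others, and 0 had an unadjusted p under 0.05. Htr5b had a log2FC of -0.29 ± 0.16 and Htr1f one of 0.28 ± 0.20. Htr2b, at most 1.32 CPM in any mouse, had an interaction of floxP with Nestin-Cre of 2.63 ± 0.78 on the log2 scale (adjusted p = 0.150).

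Of the genes that make, store, move and break down serotonin, the uptake carrier Slc29a4 and the oxidases Maoa and Maob had the highest levels. The synthesis enzyme Tph2 averaged 1.38 CPM and Tph1 0.410 CPM, the transporter Slc6a4 0.105 CPM and the raphe factor Fev 0.0761 CPM, with Fev at 0 in the median mouse. Ddc, the decarboxylase, averaged 4.52 CPM and the vesicle transporter Slc18a2 7.03 CPM. The low-affinity uptake transporter Slc29a4 averaged 43.0 ± 6.96 CPM, the oxidases Maoa and Maob 29.2 ± 3.24 and 20.5 ± 2.37 CPM, and the other low-affinity carrier Slc22a3 0.556 ± 0.595 CPM. Of the 8 tested, 0 were called by edgeR in Egr1cKO mice against all others and 1, Slc22a3, had an unadjusted p under 0.05, where 15.1% of all genes did, with 0.990 ± 0.949 CPM in Egr1cKO mice and 0.411 ± 0.353 CPM in the others (log2FC 1.30 ± 0.46, adjusted p = 0.227). Among these 8, 3 had a log2FC above 0, with a median of -0.07.

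Among 26 genes for G proteins, adenylyl cyclases, phospholipase C, potassium channels and adaptors of these receptors, edgeR called 0 in Egr1cKO mice against all others, while 7 had an unadjusted p under 0.05 with a higher level and 1 with a lower, beside 15.1% of all genes in either direction. The higher ones were Gnao1, Gnaz, Gnal, Gnaq, Plcb1, Adcy8 and Adcy9, from a log2FC of 0.13 ± 0.04 for Gnao1 to 0.41 ± 0.17 for Adcy9, and the lower one was the arrestin Arrb2 at -0.22 ± 0.09. Plcb1, the phospholipase of the Gq receptors, stood at 0.19 ± 0.07 and Gnaq at 0.20 ± 0.09. Of the 26, 21 had a log2FC above 0, with a median of 0.08, beside 48.17% of all genes and a median of -0.01.

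Among the EGR genes and their corepressors Nab1 and Nab2, Egr1 was called, with a log2FC of -3.59 ± 0.23 against all other mice (adjusted p = 1.19e-11). Egr3, the family member made with Egr1 after activity, averaged 155 CPM over all mice and had a log2FC of 0.22 ± 0.09 (unadjusted p = 0.0261, adjusted p = 0.274). Egr2, at 7.47 CPM, had one of 0.64 ± 0.35, Egr4, at 60.0 CPM, one of 0.22 ± 0.16, Nab1, at 30.4 CPM, one of -0.02 ± 0.07 and Nab2, at 24.2 CPM, one of -0.12 ± 0.09. Against Nestin-Cre controls the log2FC of Egr2, Egr3 and Egr4 was 1.00 ± 0.45, 0.27 ± 0.10 and 0.46 ± 0.18. Each had an unadjusted p under 0.05, as did 12.3% of all genes, and an adjusted p of at least 0.358. Against floxP controls the values were 0.74 ± 0.37, 0.19 ± 0.09 and 0.15 ± 0.20, with unadjusted p values of 0.0636, 0.0674 and 0.466. Nestin-Cre controls themselves lay at -0.83 ± 0.42, -0.13 ± 0.09 and -0.44 ± 0.15 against wild type.

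Since Egr1 ranged from 47.7 to 149 CPM among the mice that kept it, the receptors were also set beside Egr1 to Egr4 over those 18 mice, a set of 32 relations chosen after values had been seen. None passed Benjamini-Hochberg adjustment, and 4 had an unadjusted permutation p under 0.05. The highest was that of Htr2a with Egr3, at r = 0.671 (permutation p = 0.00255, adjusted 0.0816) and rho = 0.649 (adjusted p = 0.0746). It was 0.559 without the 2 mice farthest from the median of Egr3, 0.51 within the 6 floxP controls and 0.805 within the 12 mice with unfloxed Egr1. Htr2a with Egr1 gave r = 0.418 (adjusted permutation p = 0.548) and rho = 0.408, falling to r = 0.226 without 2 mice. Htr1a went the opposite way, with r = -0.482 against Egr1 and -0.625 against Egr2 (adjusted permutation p = 0.384 and 0.0966), and the latter was -0.463 without 2 mice.

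How the receptors varied with the make-up of the dissected tissue was read from 11 marker lists, giving 88 relations over the 24 mice, of which 9 had an adjusted permutation p of at most 0.05. The lowest p the 100000 draws can give, 1e-05, was reached by a pair of them. Htr2c was lower where dentate markers were higher, with r = -0.775 and rho = -0.806 (adjusted p = 0.00044 and 0.00088), at -0.65 without Egr1cKO male 3 and Nestin-Cre control female 1, -0.84 within the floxed and -0.77 within the unfloxed mice. It ran with the 12 inhibitory neuron markers (r = 0.700, rho = 0.687, adjusted p = 0.00323 and 0.00616) and against the 7 markers of CA3 and CA2 (r = -0.577, rho = -0.439, adjusted p = 0.0369 and 0.145), though the last was -0.36 without 2 mice. Htr4 ran with the CA3 and CA2 markers, at r = 0.846 and rho = 0.690 (adjusted p = 0.00044 and 0.00704), 0.69 without the same 2 mice, 0.79 within the floxed and 0.89 within the unfloxed mice. With the dentate markers Htr4 gave r = 0.732 (adjusted p = 0.00462) but rho = 0.358 (adjusted p = 0.293) and r = 0.41 without 2 mice, so that relation rested on them.

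**Figure D4:**
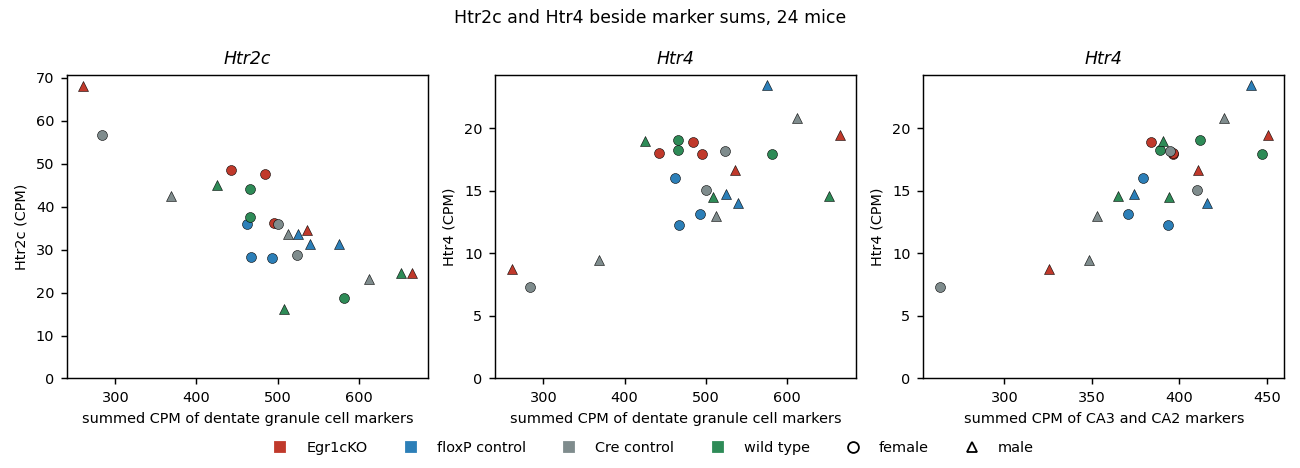
CPM of Htr2c and Htr4 (y axes, linear from 0) against the summed CPM of dentate markers or of CA3 and CA2 markers (x axes) in 24 mice, with colours for genotype, circles for females and triangles for males. Htr2c runs down from 68.2 CPM in the mouse with the lowest dentate sum, and Htr4 runs up with both sums, most closely with CA3 and CA2 markers.

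The remaining relations that passed were those of Htr1b with the 6 CA1 markers (r = 0.65, rho = 0.741, adjusted p = 0.0111 and 0.00264, 0.60 without 2 mice), Htr5a with subiculum and deep cortex (r = 0.621, rho = 0.607, adjusted p = 0.0202 and 0.0198) and with thalamus (r = 0.592, rho = 0.620, adjusted p = 0.0241 and 0.0198), and Htr2a with the habenular list. Within the unfloxed mice alone Htr1b and CA1 gave r = 0.51 and within the floxed mice 0.78. Htr1a, Htr3a and Htr7 had none at that threshold by r. By rho Htr7 passed with the dentate markers (-0.609, adjusted p = 0.0198), where its r was -0.499 (adjusted p = 0.067). The thalamus list passed by rho, though not by r, with Htr7 (0.607, adjusted p = 0.0198), Htr2c (0.618, adjusted p = 0.0198) and Htr2a (0.593, adjusted p = 0.0222). Calb2 belongs both to the thalamus list and to that of inhibitory neurons, so these lists are not independent of each other. The amount of thalamic tissue in the samples was not measured. Htr1a ran with dentate markers at r = 0.521, but at 0.07 without the 2 lowest mice. Choroid plexus markers, of which 16 of 16 were measured, summed to between 48.6 and 1207 CPM in Egr1cKO mice and between 42.9 and 2175 CPM in the others, and Htr2c gave r = 0.14 with them over the 24 mice, -0.40 within the floxed and 0.59 within the unfloxed mice.

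**Figure D5:**
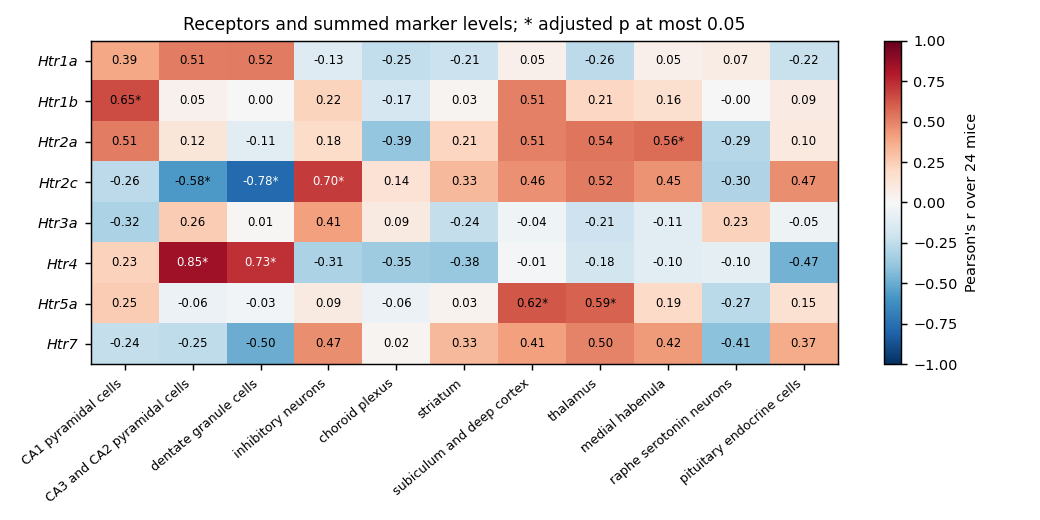
Pearson's r between each receptor (rows) and the summed level of each marker list (columns), both as log2(CPM + 1), over 24 mice, on a colour scale from -1 (blue) to 1 (red), with an asterisk where the permutation p adjusted over 88 relations is at most 0.05. Htr4 with CA3 and CA2 is the highest at 0.85 and Htr2c with dentate granule cells the lowest at -0.78.

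Receptors were also compared with each other. Of 28 pairs, 2 had an adjusted permutation p of at most 0.05. Htr2c and Htr7 ran together at r = 0.767 and rho = 0.839 (adjusted p = 0.0014 and 0.00028), 0.65 without 2 mice, 0.85 in floxed and 0.73 in unfloxed mice. Htr2a and Htr5a did so at r = 0.602 (adjusted p = 0.0286) and rho = 0.551 (adjusted p = 0.0839), 0.46 without 2 mice, 0.63 in floxed and 0.62 in unfloxed mice. The pair of Gq-coupled receptors, Htr2a and Htr2c, gave r = 0.122.

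For each receptor the 3 genes with the most similar pattern over the 24 mice were found by Pearson's r of log2(CPM + 1) among 19741 genes, as a description without a test. Htr4 had the closest neighbours, Ptpra at 0.93, Pcdh20 at 0.92 and Nsf at 0.91, followed by Htr2c with Timp2 at 0.91, Dpp10 at 0.90 and Ano2 at 0.89. The genes nearest to Htr2a were Lmtk2 at 0.89, the synaptic scaffold Homer2 at 0.87 and Zmat3 at 0.86. Those nearest to Htr1a were Rrn3 at 0.86, Gpr161 at 0.83 and Zhx3 at 0.82, and those nearest to Htr7 were Cntnap3 at 0.85, Wdr6 at 0.83 and Btbd11 at 0.82. Htr5a had Pcdhga6 at 0.80, Copb1 at 0.79 and Csrnp3 at 0.78, Htr3a had Glb1 at 0.76, Ctbp2 at 0.73 and Apmap at 0.70, and Htr1b had Flywch1 at 0.74, Castor2 at 0.74 and Zswim6 at 0.70. The receptors with the widest spread over mice, Htr2c and Htr4, were thus also those with the closest neighbours.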

How the data were processed

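Hippocampal polyA RNA of 24 mice was sequenced by the authors without keeping the strand. The submitters' processing notes name Trim Galore, FastQC and STAR with GRCm38, and the paper names other versions of the same tools. The gene annotation is not given in the sources used here. The deposited counts are raw whole-number read counts per gene, grouped here by the genotype and sex in the labels.

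CPM with TMM scaling, TPM from summed GENCODE M21 exons and log2(CPM + 1) were computed from them. Genes were filtered with filterByExpr at a minimum count of 10 and tested with edgeR's quasi-likelihood test (edgeR 4.0.16, R 4.3.3) with Benjamini-Hochberg adjustment. Between groups of mice, genes were called where the FC reached 1.2 and the adjusted p did not exceed 0.05. The floxP and Nestin-Cre terms, their interaction and the change of the sex difference were called on the adjusted p alone. The SE of a log2FC comes from the fit. DESeq2 1.42.0 with its own size factors, no filter, a replicate block, sex terms, single sexes and leaving out each mouse were alternatives. Those on Ttr and dentate markers were chosen after seeing the data. Relations across mice used two-sided permutation tests of 100000 draws. Scripts were tested on simulated data. The receptors are the genes named throughout, and the similar genes are the 3 highest by r. Members and lists were chosen with earlier results of these data known. The labels do not say whether mice shared a litter or batch, so p-values measure the spread between these mice. The motif search in the Htr7 window is not reported here.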

Additional observations from a re-analysis of the deposited data

Results flagged for a closer look

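Among the 32 sets of 6 mice formed by the 8 receptors and 4 genotypes, 2 mice lay far enough from the rest of their genotype to pass Dixon's limit at 95%, which chance alone passes in about 1 of 20 sets. Both concern Htr4. In floxP controls male 1 held 23.5 CPM, above the 12.3 to 16.0 CPM of the other 5, and in Egr1cKO mice male 3 held 8.74 CPM, below the 16.6 to 19.4 CPM of the other 5. Egr1cKO male 3 was also the mouse with the lowest dentate marker sum, at 261 CPM, and the part of that sum in the low Htr4 level was not tested.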

How the results depend on the processing

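The number of receptors called was 0 in each of the 10 comparisons and moved to 1 or 2 under some alternatives. It was 1 against floxP controls with DESeq2 (Htr2a), 2 there without a filter on low counts (Htr2a, adjusted p = 0.00185, and Htr2c, adjusted p = 5.52e-05), 1 against Nestin-Cre controls without a filter and 1 with females only (Htr2a, adjusted p = 0.00442 and 0.0448), 1 for the Nestin-Cre term without a filter (Htr2c, adjusted p = 9.16e-06), and 1 for the interaction with DESeq2 and 1 without a filter (Htr2a, adjusted p = 0.0465 and 0.0012). Leaving out 1 mouse at a time gave 0 to 1 called against all others, floxP controls and Nestin-Cre controls and for the interaction, while the calls over all genes reached 215, 304, 794 and 1526 there, and 229 for Nestin-Cre alone. No called receptor changed sign. Over all genes, the calls against all others went from 1 to 34 with DESeq2, 7 without a filter, 3 with sex as a term, 19 without the mice rich in Ttr and 69 without the dentate-poor mice. Against floxP controls they went from 4 to 86 with DESeq2, 808 without a filter, 50 with females only and 1 with males only. Against Nestin-Cre controls they went from 1 to 37, 529 and 310 with DESeq2, no filter and females only. For the interaction they went from 1 to 41 with DESeq2 and 1173 without a filter, for the Nestin-Cre term from 9 to 18 and 191, for the floxP term from 1 to 97 without a filter, for Nestin-Cre alone from 0 to 17 and 156, for floxP alone from 0 to 1 and 163, and for the change of the sex difference from 1 to 6 and 146. The cause was not tested.

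Of 36 pairs of same-numbered mice, 7 had a correlation of deviations over 0.1, with a median of -0.053. Among pairs with other numbers, 20 of 72 did, with a median of 0.004. These correlations cannot tell whether same-numbered mice shared a litter or batch. With the number as a replicate block 0 receptors were called, as without it, and the calls over all genes went from 1 to 3 against all others and from 4 to 9 against floxP controls. The log2FC of Htr2a was 0.40 (adjusted p = 0.228) against all others and 0.47 (adjusted p = 0.0815) against floxP controls in the fit with the block.

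The order of levels depended on length. With the longest transcript the log2 ratio of Htr3a to Htr2c was -0.67 and that of Htr2c to Htr4 1.07. With CPM and no length the ratios were 2.18 for Htr1a to Htr3a, -1.90 for Htr3a to Htr2c, 1.14 for Htr2c to Htr4, 1.00 for Htr2a to Htr7 and -0.51 for Htr7 to Htr5a. The lowest count of a receptor in a mouse was 101 reads, for Htr1b, which limits the precision of its values.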
